A study of Homo sapiens with 4 samples.

Results

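The genes described here are 10 polycomb group genes whose products keep CDKN2A, the locus of the cell cycle inhibitor p16, silent in dividing cells: EZH1, EZH2, SUZ12, EED, JARID2, BMI1, RING1, RNF2, CBX7 and CBX8. They were chosen by name, and their values were found by matching the Ensembl identifiers of the deposited transcripts to gene symbols. They are 10 of 51047 symbols, and they hold 75 of the 185591 transcripts with an Ensembl identifier. Of these 75 transcripts, 39 are annotated as protein coding, 27 were above 0 in at least 1 library, and 20 of those 27 were coding.

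The cells were WI-38, an established human line of diploid fibroblasts from fetal lung whose number of divisions is limited. Each of the 4 groups held 1 library: young whole cells and young mitoplasts, from cells at a population doubling level (PDL) of 21, and senescent whole cells and senescent mitoplasts, from cells at a PDL of 60. Mitoplasts are mitochondria freed of their outer membrane, and here they were treated with RNase A, which digests RNA outside them. The labels name no edited gene and no drug in any group, all groups come from 1 cell line, and the series calls the senescence replicative, which is the kind reached by repeated passage.

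The unit is FPKM, the fragments of a transcript scaled to its length and to all mapped fragments. Sequencing depth is unknown, since read counts are not part of the files. With 1 library in a group there is no replicate spread and no test: each ratio below compares 2 libraries, and neighbours in an order of levels cannot be judged against any error. Ratios are given as log2 ratios after adding 1 FPKM to each value, which understates the change of low genes, and "past" means a ratio of at least 1 in size on that scale. No ratio is printed against a library where a gene is listed at 0, because a 0 in such files can be a failed estimate, though such genes enter the counts and medians with the added 1 FPKM. As in any bulk sample, fewer cells with an RNA and less of it per cell cannot be told apart, and the strand setting of the counting is not given, so reads of overlapping antisense genes cannot be separated.

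Before the results, 2 limits of the libraries apply. The 13 mitochondrial mRNAs, which mark the mitochondrial interior, were all higher in young mitoplasts than in young whole cells, with a median ratio of 1.89. By annotated transcripts 12 of the 13 were listed at 0 in senescent mitoplasts, and 11 in senescent whole cells, so the senescent fraction could not be checked in this way. The senescent mitoplast library also had the fewest coding genes at 1 FPKM or more, 6630 against 9540 to 9781 in the other libraries. Its values stand beside those of the other libraries below, and this limit applies wherever senescent mitoplasts are named.

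Polycomb proteins act in 2 main complexes. Polycomb repressive complex 2 (PRC2) places methyl groups on lysine 27 of histone H3, and polycomb repressive complex 1 (PRC1) binds that mark and attaches ubiquitin to histone H2A. In dividing fibroblasts both complexes sit on the CDKN2A locus, and their loss from it during senescence is a textbook step in the rise of p16.

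In 6 of the 10 genes, FPKM was assigned to annotated transcripts that contain sequence outside the exons of the coding transcripts. A stretch of each is shown because several differences described below lie on these forms. They are printed 5′ to 3′ of the transcript, from the GRCh38 genome and GENCODE release 29, with coding exon bases in lower case and bases that the coding transcripts remove as intron in capitals.
RNF2, ENST00000498201, chr1:185091700-185091799, plus strand: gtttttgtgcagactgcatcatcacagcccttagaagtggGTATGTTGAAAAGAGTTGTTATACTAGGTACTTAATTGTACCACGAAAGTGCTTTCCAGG
BMI1, ENST00000490311, chr10:22328019-22328118, plus strand: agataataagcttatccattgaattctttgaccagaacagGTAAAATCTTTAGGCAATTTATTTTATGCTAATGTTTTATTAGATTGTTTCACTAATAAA
EED, ENST00000525244, chr11:86277099-86277198, plus strand: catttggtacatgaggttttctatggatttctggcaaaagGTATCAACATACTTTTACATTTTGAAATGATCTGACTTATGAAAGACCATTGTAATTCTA
EZH2, ENST00000498186, chr7:148817817-148817916, minus strand: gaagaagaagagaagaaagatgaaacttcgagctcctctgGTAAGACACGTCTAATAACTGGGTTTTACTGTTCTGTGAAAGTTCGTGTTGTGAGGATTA
EZH1, ENST00000586714, chr17:42702922-42703021, minus strand: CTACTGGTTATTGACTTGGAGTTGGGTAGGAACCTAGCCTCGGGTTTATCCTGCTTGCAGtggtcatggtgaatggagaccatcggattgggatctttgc
RING1, ENST00000478431, chr6:33209566-33209665, plus strand: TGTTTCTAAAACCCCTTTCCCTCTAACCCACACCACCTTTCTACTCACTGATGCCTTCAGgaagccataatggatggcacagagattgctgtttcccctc

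In RNF2, BMI1, EED and EZH2 the exon runs on into the intron, and in EZH1 and RING1 the transcript starts inside the intron and enters the exon. The share of the transcript that lies outside coding exons was 42.3% (267 of 631 bases) for RNF2, 35% (208 of 594) for EZH1, 26.8% (397 of 1484) for EED, 25.9% (485 of 1876) for EZH2, 11.4% (79 of 693) for BMI1 and 4.31% (66 of 1532) for RING1. The rest of each transcript has the same letters as a coding transcript, so the assignment of reads between them rests on the authors' software. The annotation calls the RING1 form a processed transcript and the other 5 retained intron forms. The deposited values belong to whole transcripts, and reads over the printed junctions were not analysed here.

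**Figure D1:**
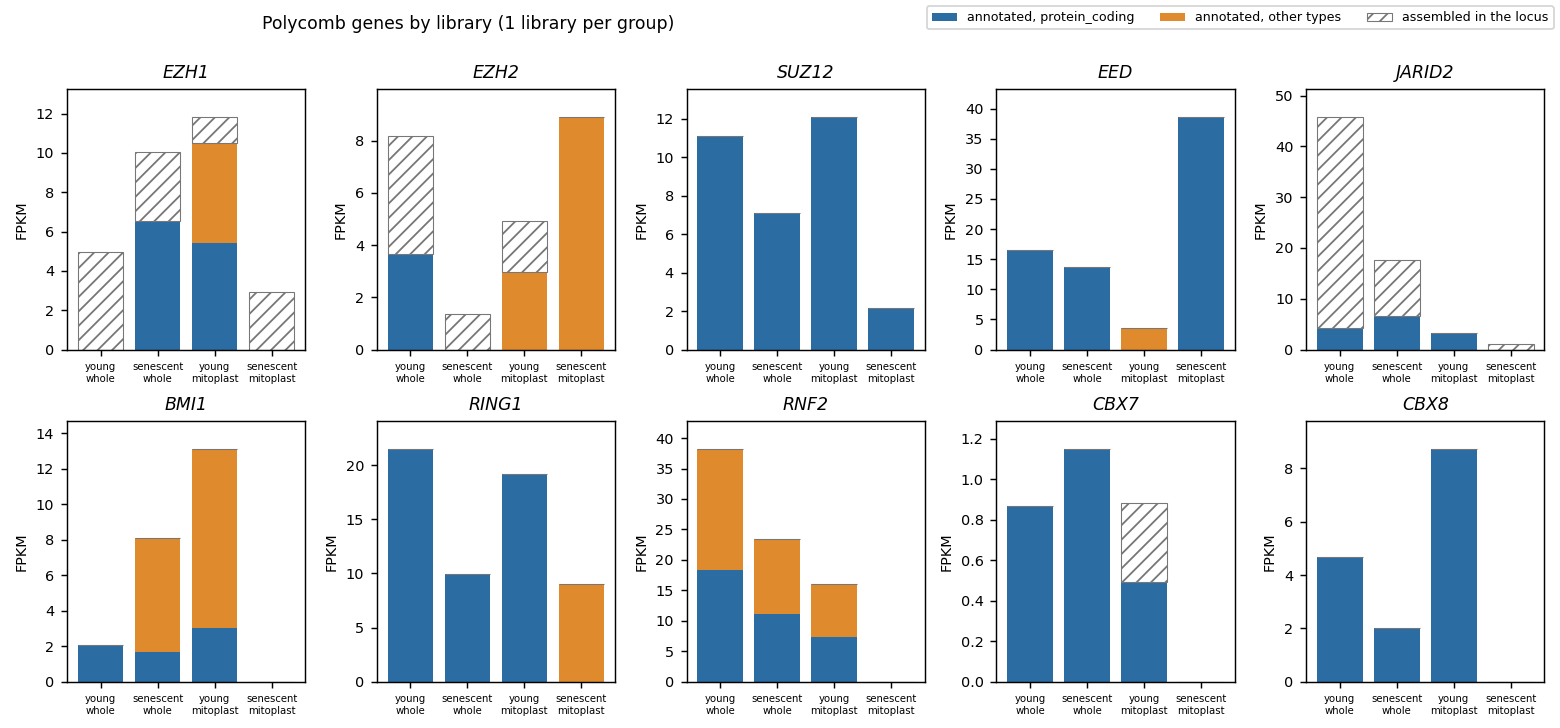
FPKM of each of the 10 genes in the 4 libraries, as stacked bars on linear axes from 0, with 1 panel per gene and a scale of its own: coding transcripts in blue, other annotated types in orange, assembled transcripts in the locus hatched. RNF2 has coding and other parts of like height in 3 libraries, BMI1 is mostly orange at 8.11 and 13.1 FPKM, and the hatched parts of EZH1 in young whole cells and of CBX7 lie in loci shared with another gene.

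Across the 10 genes, young whole cells ran from 0 FPKM for EZH1 to 38.3 for RNF2, with a median of 4.46. The median was 6.83 FPKM in senescent whole cells, 9.61 in young mitoplasts and 0 in senescent mitoplasts. A gene was listed at 0 once in each whole cell library, EZH1 in young cells and EZH2 in senescent cells. None of the 10 was listed at 0 in young mitoplasts, and 6 were in senescent mitoplasts. Of the FPKM of the 10 genes together, coding transcripts held 80.8% (young whole cells), 76% (senescent whole cells), 66.3% (young mitoplasts) and 69.5% (senescent mitoplasts).

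In whole cells, 2 of the 10 genes were lower and 2 higher in the senescent library by a log2 ratio of at least 1. Over 10730 coding genes at 1 FPKM or more, 22.3% were lower and 14.5% higher by the same measure. The median ratio of the 10 was -0.42, beside -0.21 over those coding genes. EZH2 and RING1 were the lower pair and EZH1 and BMI1 the higher pair, and in EZH1 and EZH2 the count rests on a library at 0. With coding transcripts alone the count was 2 lower and 1 higher, beside 22.3% and 15.5% of coding genes, and the gene that left was BMI1. With assembled transcripts added it was 3 lower and 2 higher, beside 20.2% and 11.8%, and the gene that joined was JARID2. EZH1 counts as higher there without an assembled transcript of a shared locus in young whole cells, described below.

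The methyltransferases of PRC2 are EZH2, the form of dividing cells, and EZH1, its relative with weaker activity in resting cells. Young whole cells had 3.66 FPKM of EZH2, and senescent whole cells listed it at 0. Mitoplasts had 2.98 FPKM when young and 8.9 when senescent. The coding transcript, ENST00000350995, was above 0 in young whole cells alone. In young mitoplasts the whole value came from ENST00000483012, a form annotated for nonsense-mediated decay, and in senescent mitoplasts from ENST00000498186, the intron-containing form printed above. The mitoplast ratio of 1.32 therefore compares 2 different transcripts, neither of them coding. With assembled transcripts that ratio was 0.74 and no longer past 1.

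Assembled transcripts, which the authors' software built without an Ensembl identifier, also lay in the EZH2 locus. The first had 2.57 FPKM in the young and 0.375 in the senescent whole cell library. The second had 1.94 FPKM in young whole cells alone, and the third 1.01 FPKM in senescent whole cells and 1.94 in young mitoplasts. With all of them EZH2 came to 8.17 FPKM in the young and 1.38 in the senescent whole cell library, which is 5.91-fold lower in the senescent library, a log2 ratio of -1.94. EZH2 was thus lower in senescent whole cells with and without assembled transcripts.

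EZH1 had the opposite pattern in whole cells. Its FPKM was 0 (young whole), 6.56 (senescent whole), 10.5 (young mitoplast) and 0 (senescent mitoplast). A coding transcript of 1022 bases, ENST00000586382, held 5.38 FPKM in senescent whole cells and 5.41 in young mitoplasts. A longer coding form of 4623 bases, ENST00000428826, had 1.18 FPKM in senescent whole cells and 0 elsewhere, and the intron-containing form was at 5.09 FPKM in young mitoplasts. The 0 in young whole cells is uncertain, because an assembled transcript at 4.94 FPKM lay there in a locus that EZH1 shared with CCR10, a chemokine receptor gene. Which of the 2 genes it covers is not known, so the counts with assembled transcripts leave it out. Those counts do include 3.48 FPKM of assembled transcripts for EZH1 in senescent whole cells, and the 2 libraries are thus not treated alike.

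SUZ12 and EED are the scaffold of PRC2 and the subunit that reads its mark. SUZ12 had 11.1 FPKM (young whole), 7.1 (senescent whole), 12.1 (young mitoplast) and 2.16 (senescent mitoplast). The senescent library was 1.57-fold lower in whole cells, a log2 ratio of -0.58, and 5.6-fold lower in mitoplasts, a ratio of -2.05. All of this FPKM was on 2 coding transcripts, and the longer one, ENST00000322652, was the lower of the 2 in each library. SUZ12P1, a near-identical pseudogene, was at 188, 78.9, 0 and 11.9 FPKM in the same order of libraries, so reads could be split between the copies and the SUZ12 values are uncertain.

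EED had 16.6 FPKM in the young and 13.7 in the senescent whole cell library, a ratio of -0.26. In mitoplasts the order was the other way, with 3.56 FPKM (young) and 38.6 (senescent), 10.8-fold more and a ratio of 3.12. The senescent mitoplast value was all on ENST00000534595, a short coding transcript of 713 bases, which was also the main form in whole cells at 13.2 and 10.6 FPKM. The young mitoplast value was all on the intron-containing form. EED was the only one of the 10 genes above its whole cell level in senescent mitoplasts by a coding transcript.

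JARID2 is an accessory subunit that helps PRC2 bind chromatin. Its FPKM was 4.27 (young whole), 6.54 (senescent whole), 3.26 (young mitoplast) and 0 (senescent mitoplast). The 3.26 belongs to a transcript that carries its Ensembl identifier only in another library's file, and by the young mitoplast file alone JARID2 would be at 0. The whole cell ratio was 0.52, and the form in use differed. The young whole cell value was all on ENST00000341776, while the senescent one was split into 1.43 FPKM of that form and 5.12 of ENST00000397311. Assembled transcripts outweighed both. The first had 13.8 FPKM in the young and 6.49 in the senescent whole cell library. The second had 27.7 FPKM in young whole cells alone, and the third 4.63 FPKM in senescent whole cells alone. With them JARID2 was at 45.8 and 17.7 FPKM, 2.59-fold lower in the senescent library, a ratio of -1.33. The direction for JARID2 in whole cells therefore depends on whether assembled transcripts are counted. JARID2-AS1, an antisense gene within the locus, was listed at 1.62 FPKM in young whole cells and at 0 in the other libraries.

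RING1 and RNF2, also called RING1B, are the ubiquitin ligases of PRC1. RING1 had 21.5 FPKM (young whole), 9.94 (senescent whole), 19.2 (young mitoplast) and 9.02 (senescent mitoplast). Both senescent libraries were lower than both young ones, 2.17-fold in whole cells (ratio -1.04) and 2.13-fold in mitoplasts (ratio -1.01). The mitoplast ratio was -0.37, -0.12 and -1.11 under 3 rescalings of the libraries, so that 2 of them end this call. The senescent mitoplast value was on ENST00000478431, the processed transcript printed above, while the other 3 were on the coding transcript ENST00000374656. The whole cell ratio lay close to 1 in size. It was -0.89 to -0.79 under the same rescalings, so no longer past 1, and the median coding gene itself had a ratio of -0.21.

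By annotated transcripts RNF2 was the highest of the 10 genes in both whole cell libraries, with 38.3 FPKM (young) and 23.6 (senescent). The ratio was -0.68. By coding transcripts alone RNF2 had 18.4 and 11.1 FPKM, below RING1 in young cells (21.5) and EED in senescent cells (13.7). With assembled transcripts JARID2 was higher in young whole cells, at 45.8 FPKM. Young mitoplasts had 16.0 FPKM of RNF2 and senescent mitoplasts listed RNF2 at 0. Its 4 annotated transcripts were all above 0 in a library. The intron-containing form was the main one in each library with a value, at 19.8, 12.4 and 8.65 FPKM. Coding transcripts held 48.2%, 47.3% and 46.0% of the gene's FPKM in young whole cells, senescent whole cells and young mitoplasts, so this share moved by little while the sum differed 2.39-fold between the highest and the lowest of these 3 libraries.

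BMI1, a ring finger subunit that stimulates RNF2, is the polycomb gene best known for holding p16 down in fibroblasts. Its FPKM was 2.05 (young whole), 8.11 (senescent whole), 13.1 (young mitoplast) and 0 (senescent mitoplast). The sum was thus 3.96-fold higher in senescent whole cells, a ratio of 1.58, and 6.39-fold higher in young mitoplasts than in young whole cells, a ratio of 2.21. The coding transcript, ENST00000376663, was at 2.05, 1.68 and 3.02 FPKM in the first 3 of these libraries, with a whole cell ratio of -0.19 and a young mitoplast ratio of 0.40. The difference came from ENST00000490311, the intron-containing form of 693 bases, at 0, 6.43 and 10.1 FPKM. BMI1 was therefore higher in senescent whole cells by all annotated transcripts but not by its coding transcript. The coding ratio of -0.19 was near the median of -0.18 over coding genes by coding transcripts.

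A larger FPKM was listed for the gene that overlaps BMI1 on the same strand. COMMD3-BMI1 is a read-through gene that joins the start of COMMD3, the neighbour upstream, to BMI1 exons. It had 91.1 FPKM (young whole), 49.5 (senescent whole), 85 (young mitoplast) and 0 (senescent mitoplast). Its main form, ENST00000489125, has 329 bases, of which 238 lie before BMI1 and 91 in BMI1 exons, and it was at 80.7, 32.1 and 63.8 FPKM in the first 3 libraries. The splice that joins both genes runs from chr10:22317956-22317995 to chr10:22326431-22326470 on the plus strand of GRCh38, and is shown with the BMI1 exon in capitals.
ENST00000489125: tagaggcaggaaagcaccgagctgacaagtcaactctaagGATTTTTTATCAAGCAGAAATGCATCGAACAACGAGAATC

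COMMD3 itself was listed at 0 in all 4 libraries. The read-through gene was 1.84-fold lower in senescent whole cells, a ratio of -0.87, and the young mitoplast library was close to young whole cells, with a ratio of -0.10. Its forms did not all go this way, as ENST00000475460 was at 0 in young and 8.59 FPKM in senescent whole cells. The main form, ENST00000489125, has 238 of its 329 bases before BMI1. Whether reads of COMMD3 RNA were assigned to it was not tested. So forms listed at the BMI1 locus went both ways in senescent whole cells. The coding BMI1 transcript differed by less than the intron-containing form or the main read-through form.

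**Figure D2:**
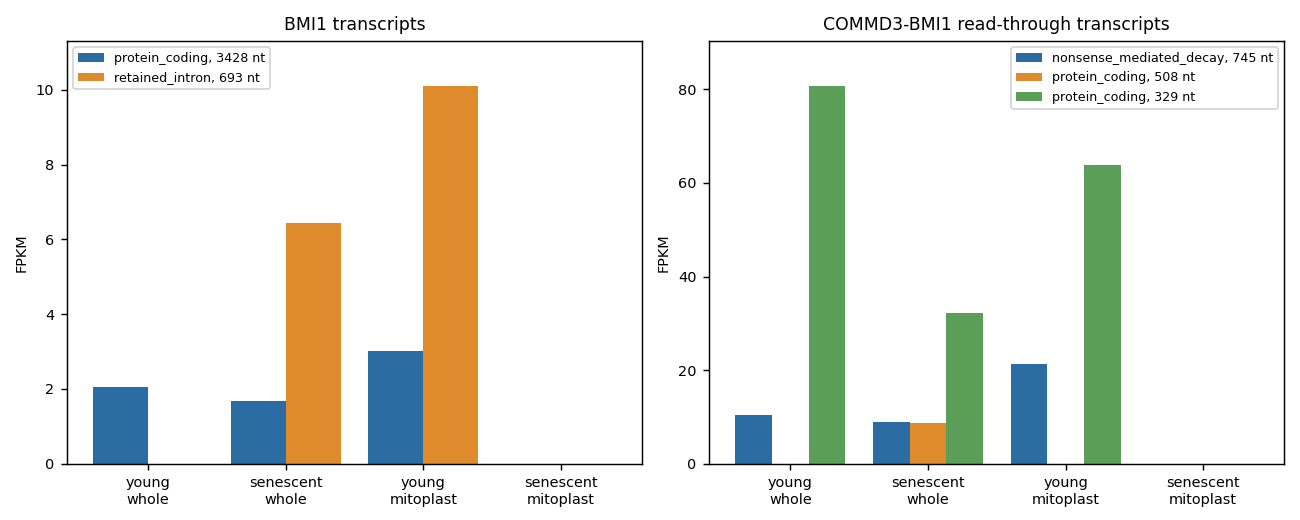
FPKM of the annotated transcripts of BMI1 and COMMD3-BMI1 in the 4 libraries, 1 bar per transcript and library, on linear axes from 0 that differ between the panels. The read-through form ENST00000489125 is at 80.7 in young and 32.1 in senescent whole cells, and the intron-containing BMI1 form is at 0 and 6.43.

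CBX7 and CBX8 are chromodomain subunits that bind methylated lysine 27. CBX7 was the lowest gene in the young mitoplast library and low everywhere, with 0.87 FPKM (young whole), 1.15 (senescent whole), 0.493 (young mitoplast) and 0 (senescent mitoplast). At such levels the whole cell ratio of 0.20 covers little FPKM. CBX8 had 4.66 FPKM (young whole), 2 (senescent whole), 8.73 (young mitoplast) and 0 (senescent mitoplast). Its senescent whole cell library was 2.33-fold lower, a ratio of -0.92, and all 3 of its coding transcripts were lower there. It was -1.03 when identifiers were taken from each library's own file, and so past 1. In young mitoplasts the value was nearly all on ENST00000413392, a 777-base transcript at 8.44 FPKM, which was at 1.22 in young whole cells.

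**Figure D3:**
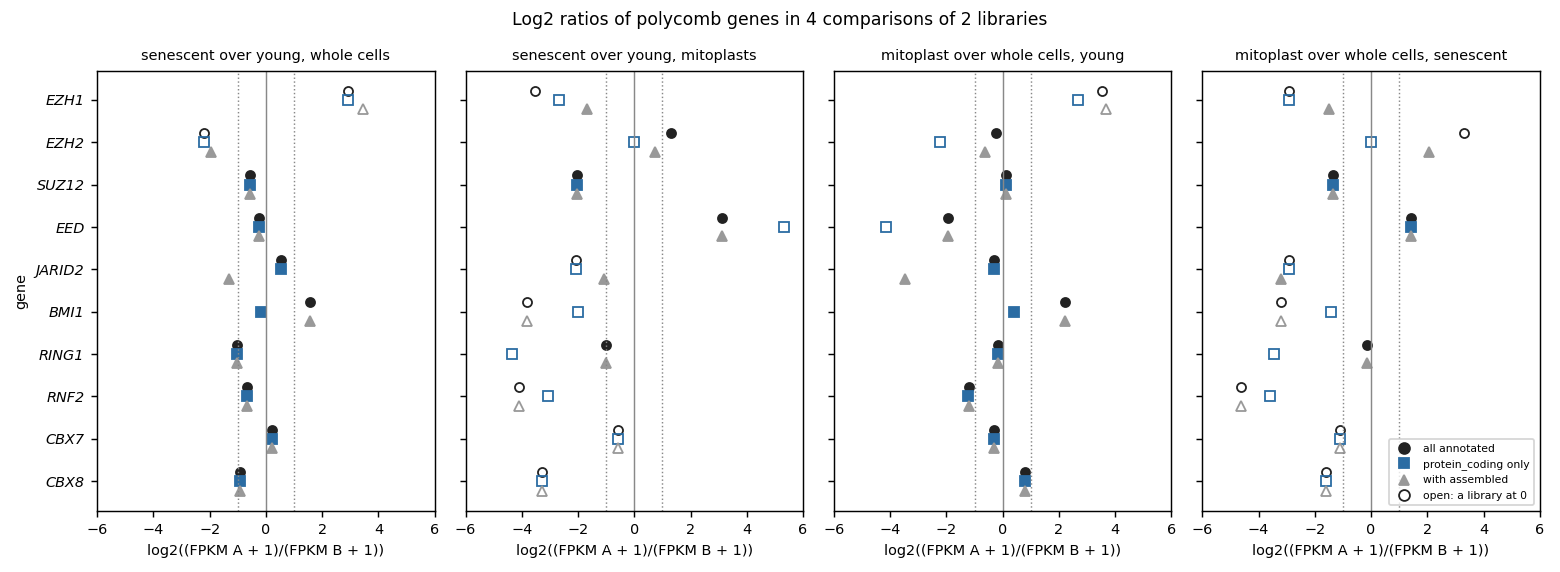
Log2 ratios of the 10 genes, 1 panel per comparison, from annotated transcripts (circles), coding transcripts alone (squares) and with assembled transcripts (triangles), open where a library is at 0, with dotted lines at -1 and 1. In whole cells BMI1 is at 1.58 by all annotated transcripts and at -0.19 by its coding transcript, and JARID2 at 0.52 without and -1.33 with assembled transcripts.

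In mitoplasts, 7 of the 10 genes were lower in the senescent library by a log2 ratio of at least 1 and 2 were higher. Over 11111 coding genes 56.5% were lower and 20.3% higher. EZH1, JARID2, BMI1, RNF2 and CBX8 were listed at 0 there, SUZ12 and RING1 were lower with a value in both libraries, and EZH2 and EED were higher. The median ratio was -2.07 for the 10 genes and -1.25 for the coding genes. By coding transcripts alone 7 were lower and 1 higher, beside 65.0% and 15.6%, and only SUZ12 and EED had a coding transcript above 0 in senescent mitoplasts. With assembled transcripts 7 were lower and 1 higher, beside 56.3% and 17.7%.

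The zeros in senescent mitoplasts were common among all genes of like level. Of 4 members between 1 and 5 FPKM in young whole cells, 3 were listed at 0, beside 55.2% of 2876 coding genes in that range. Of 4 members between 5 and 50 FPKM, 1 was listed at 0, beside 34% of 5013 coding genes. Assembled transcripts held 97.3% of all FPKM in the senescent mitoplast library and 92.7% in young mitoplasts. Their part in the zeros was not tested. Of the 6 genes at 0, EZH1 had an assembled transcript at 2.94 FPKM and JARID2 one at 1.01 in the senescent mitoplast library.

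Between fractions of young cells, 2 of the 10 genes were lower in mitoplasts, EED and RNF2, and 2 were higher, EZH1 and BMI1. The background over 11537 coding genes was 35.2% lower and 20.8% higher. The ratio was -1.95 for EED and -1.21 for RNF2, which was -0.94 to -0.70 and no longer past 1 under rescaling, and it lay between -0.32 and 0.78 for EZH2, SUZ12, JARID2, RING1, CBX7 and CBX8. By coding transcripts 3 were lower and 1 higher, beside 36.2% and 18.5%, and with assembled transcripts 3 lower and 2 higher, beside 34.9% and 16.7%. The median ratio was -0.19 for the 10 genes and -0.33 for the coding genes, so RNA of these nuclear genes was listed in the RNase-treated fraction too.

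Between fractions of senescent cells, 7 of the 10 genes were lower in mitoplasts and 2 higher, beside 61.0% and 18.4% of 10935 coding genes. EED was higher at a ratio of 1.43, which was 2.50, 1.62 and 2.48 under 3 rescalings. SUZ12 was lower at -1.36, which was -0.53, -1.22 and -0.55 under them, so that 2 of them end this call. RING1 lay at -0.13, and at 0.05 to 0.89 under them, with no coding transcript in mitoplasts. EZH2 was listed at 0 in whole cells, and the other 6 genes were listed at 0 in mitoplasts. By coding transcripts 8 were lower and 1 higher, beside 70.5% and 13.3%, and with assembled transcripts 7 lower and 2 higher, beside 62.6% and 15.5%. The median was -1.47 for the 10 genes and -1.44 for the coding genes. This comparison and the mitoplast one share the senescent mitoplast library, so their counts are not separate evidence.

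CDKN2A, the repressed locus, had 0 FPKM (young whole), 15.6 (senescent whole), 65.5 (young mitoplast) and 33.5 (senescent mitoplast). ENST00000304494 held all of the senescent whole cell value and 25.8 FPKM in young mitoplasts. ENST00000578845, a coding form of 678 bases, was at 39.7 and 33.5 FPKM in young and senescent mitoplasts and at 0 in whole cells. CDKN2B, the neighbouring inhibitor gene, was at 11.1, 10.1, 3.67 and 4.02 FPKM, with a whole cell ratio of -0.13. By coding transcripts that ratio was 0.18, as 2.31 FPKM of the young whole cell value lay on a retained intron form. The antisense gene CDKN2B-AS1 was listed at 0 except in senescent mitoplasts, at 7.72 FPKM.

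Of the other PRC2 subunits, 2 of 7 matched genes were lower and 1 was higher in senescent whole cells, with a median ratio of -0.37 (0.00 by coding transcripts). The coding median includes genes at 0 in both libraries, and was 0.25 over the 4 genes above 0 in both. RBBP7, a histone-binding subunit, went from 50.8 to 21.2 FPKM, a ratio of -1.22, and its relative RBBP4 from 74.9 to 0. AEBP2, an accessory subunit, went from 198 to 649 FPKM, a ratio of 1.70. A short coding transcript of 507 bases held 48% of the young and 86% of the senescent value. PHF1 and MTF2, which bind methylated histone and DNA, had ratios of 0.95 and -0.64, both from noncoding transcripts. Short transcripts can take large FPKM from few reads, and the number of reads is not known here.

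Of the other PRC1 subunits, 5 of 29 were lower and 4 higher, with a median ratio of -0.41. By coding transcripts 4 were lower and 3 higher, with a median of 0.00, or 0.16 over the 21 genes above 0 in both libraries. SCMH1, a sex comb on midleg homologue, went from 4.65 to 130 FPKM, a ratio of 4.54, on a processed transcript of 447 bases, and its coding ratio was 0.32. PHC3, a polyhomeotic subunit, went from 10.2 to 25.3 FPKM, a ratio of 1.23, which was 0.66 and no longer past 1 with assembled transcripts. BCORL1, a corepressor, went from 8.91 to 0.6 FPKM (ratio -2.63, coding -0.57) and PCGF3, a relative of BMI1, from 77.5 to 17.5 FPKM. The PCGF3 ratio was -2.08, with -0.70 by coding transcripts and 1.22 with assembled transcripts, so it changed sign.

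Among 10 enzymes that remove polycomb marks or assist in it, none was past 1 in either direction by annotated transcripts, with a median of -0.26 (-0.02 by coding transcripts). KDM6B, a demethylase of lysine 27, went from 9.4 to 17.8 FPKM, a ratio of 0.86, while its coding transcripts went from 9.4 to 0 and its ratio with assembled transcripts was 1.05. BAP1, a deubiquitinase of H2A, had a ratio of -0.94, but 0.04 by coding and -1.24 with assembled transcripts. Its partner ASXL1 had -0.88, and -0.58 by coding transcripts. FOXK2, another partner, had -0.86, and its coding transcripts were at 0 in both whole cell libraries. For 14 trithorax group genes, which oppose polycomb repression, the median ratio was -0.43. It was -0.76 over the 11 above 0 in both libraries, since KMT2B, ASH2L and SMARCC2 were at 0 in both. Of the 14 genes, 3 were lower and none higher. These were MEN1 (ratio -1.13), a partner of histone H3 lysine 4 methyltransferases, and the SWI/SNF remodelling subunits ARID1A (-1.32) and SMARCB1 (-1.11), while SMARCC1 of the same complex lay at -0.85, and at -0.32 by coding transcripts. The ratios of MEN1 and SMARCB1 lay close to 1 in size, and whether these calls hold under rescaling was not tested. A short coding transcript of 595 bases held 57.4% of the young and 66.2% of the senescent SMARCB1 value. All counts of these gene lists stand beside the 22.3% of coding genes lower and 14.5% higher.

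Of 19 cell division genes, 17 were lower in senescent whole cells and none higher, with a median ratio of -3.21, beside the same background. By coding transcripts 14 were lower and none higher, with a median of -1.85. EZH2 is known to follow cell division, and these genes were lower in the library where it was lower. Their part in the EZH2 value was not tested.

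**Figure D4:**
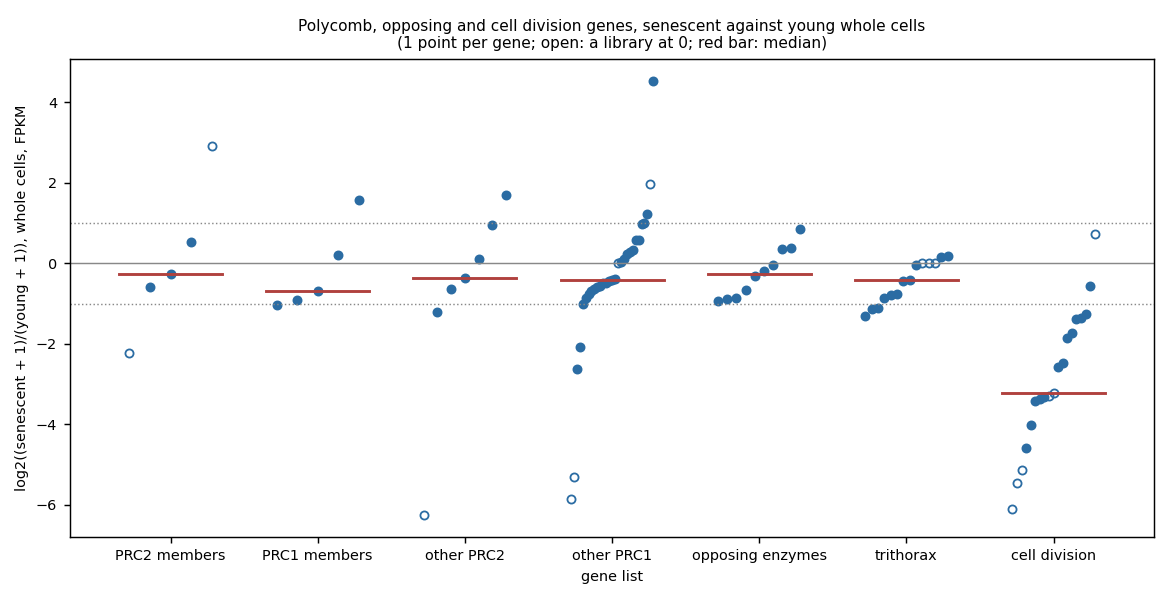
Log2 ratios of senescent over young whole cells by gene list, from annotated transcripts, 1 point per gene sorted within its list, open where a library is at 0, with red bars at the medians and dotted lines at -1 and 1. The cell division genes have a median of -3.21, and those of the other PRC2, other PRC1, opposing and trithorax lists lie between -0.43 and -0.26, beside the 10 polycomb genes shown by complex. Genes at 0 in both libraries enter these medians, and over the 11 trithorax genes above 0 in both the median was -0.76.

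For RNF2, BMI1 and EZH1, the 3 genes with the widest range of log2(FPKM + 1), a range that rests on a library listed at 0, the coding genes with the most similar pattern over the 4 libraries were sought among the 9395 genes that reached 5 FPKM somewhere, by the Euclidean distance between their centred log2 values. RNF2 was closest to PDXK (0.10), FBXO22 (0.18) and ALKBH3 (0.21). BMI1 was closest to ATOSA and OSGEP (0.32 each) and to E2F7 (0.37). EZH1 was closest to C19orf25 (0.13), STING1 (0.18) and SGMS1 (0.23). With 4 libraries many genes share a pattern, and the distances are a description of these libraries.

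The identity of the libraries was checked on marker lists. Summed fibroblast markers were at 7078, 3676, 5430 and 925 FPKM in young whole, senescent whole, young mitoplast and senescent mitoplast libraries. VIM, which encodes vimentin, made up 3263, 1144, 4312 and 0 FPKM of these sums. Epithelial markers summed to 23 to 26.9 FPKM, with KRT18 at 12.6 to 19.7, KRT19 at up to 8.3 and KRT5 at 0 in all libraries. Endothelial markers summed to 8.23 to 32.5 FPKM, mainly TEK at 7.95 to 28.8 and, in senescent mitoplasts, VWF at 23.3, with CDH5 at 0 in all libraries. Smooth muscle markers summed to 30.2 to 91.4 FPKM, nearly all of it CNN1, with MYH11 at 0. Blood markers were at 0.484 to 0.759 FPKM except in young mitoplasts, at 13.4, where PTPRC made up 12.4 while CD3E, CD68 and HBA1 were at 0. The part of other cell types in the polycomb values was not tested.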

How the data were processed

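The authors deposited 1 file for each of 4 libraries, with FPKM for each of 393483 transcripts, per the file headers. Cufflinks 2.2.1, TopHat2 2.0.14, the build hg19 and Cuffdiff appear, without their order, in the submitters' processing notes. Which annotation release was used is not stated in them. The labels' protocols give a TruSeq kit. Transcripts were taken as annotated where any of the 4 files gave an Ensembl identifier, and matched to symbols, types and lengths of GENCODE release 29 (94.1% matched). FPKM was summed per gene over annotated transcripts, over coding ones alone, and with assembled transcripts of loci that hold that gene alone. Printed coordinates are those of GRCh38, not of the files. A list was described by its counts and median beside coding genes at 1 FPKM or more in a library of the pair. Members, lists and the rule for other named genes, up to 4 per list by size of ratio and 3 nearest patterns, were chosen with earlier results of these data known. The ratio code was run on simulated data with known folds in genes at 5 FPKM or more, which checks the arithmetic and not values at 0. Python 3.11.15, pandas 2.3.3 and numpy 2.4.6 were used. Alternatives were a pseudocount of 0.1, a minimum of 5 FPKM, transcripts of 600 bases or more, 3 rescalings, coding transcripts alone and assembled transcripts added. Chosen after seeing the data were identifiers from each library's own file and genes above 0 in both libraries.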

Additional observations from a re-analysis of the deposited data

Results flagged for a closer look

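In 4 of the 10 genes a comparison went past a log2 ratio of 1 one way in young cells or whole cells and the other way in senescent cells or mitoplasts, each with 1 library a group, and the difference was not tested. The same was seen in 10.3% of the 12700 coding genes that reached 1 FPKM somewhere, 6.34% by the ratios of senescent to young and 7.19% by those of mitoplasts to whole cells. By coding transcripts it was seen in 2 of the 10 genes, EZH1 and EED, beside 9.67%, and with assembled transcripts in 3, EZH1, EED and BMI1, beside 8.42%. For EZH1 the last count leaves out the assembled transcript at 4.94 FPKM in young whole cells, in the locus shared with CCR10. EZH1 was at 10.5 FPKM in young mitoplasts and listed at 0 in senescent mitoplasts, while in whole cells the young library was the one at 0. Its fractions were opposed in the same way, higher in mitoplasts of young cells and lower in those of senescent cells. EZH2 had a ratio of 1.32 between senescent and young mitoplasts and was listed at 0 in senescent whole cells, but the ratio was 0.74 with assembled transcripts. EED was higher in mitoplasts than in whole cells of senescent cells, at 1.43, and lower in those of young cells, at -1.95. BMI1 was higher in senescent than young whole cells, at 1.58, and listed at 0 in senescent mitoplasts. In young cells BMI1 was higher in mitoplasts, at 2.21, and in senescent cells the mitoplast library was at 0.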

How the results depend on the processing

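No paired analysis was possible because each group held 1 library. Of the whole cell counts, 1 gene was lower under each of the 3 rescalings, at 5 FPKM or more (of 7 genes) and among the 8 genes above 0 in both libraries, and 1 was higher by coding transcripts alone and among those 8. BMI1 had a whole cell ratio of -0.19 by coding transcripts. In mitoplasts, 1 gene was higher by coding transcripts and 1 with assembled transcripts, and 2 of the 4 genes above 0 in both libraries were lower. Between young fractions, 1 gene was higher by coding transcripts and 1 among the 9 genes above 0 in both. Under each rescaling 1 was lower and 3 were higher, with CBX8 joining. Between senescent fractions, 1 gene was higher by coding transcripts, and of 3 genes above 0 in both 1 was higher and 1 lower. The cause was not tested except where fewer genes or transcripts entered. The median ratio of coding genes moved from -0.21 to between -0.07 and 0.03 in whole cells under rescaling, and from -1.25 to between -1.30 and -0.74 in mitoplasts. By transcripts of 600 bases or more, EZH1 lost its 594-base form and no member's call changed. Precision is limited by 1 library a group and by depth, which is unknown.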
